A study of Mus musculus with 4 samples.

Results

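The Tdp-labelled cells of the tumor library are the 2693 cells that the authors' annotation places in the tumor and labels Tdp. They made up 48.3% of the 5570 tumor cells and 25.5% of all 10558 cells of both libraries. The sources used here do not say what Tdp stands for or how a cell got the label. If the authors drew the label from these same counts, its marker genes differ between labels by construction, so every difference below is a description and none is a test.

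The study asked about T cells that carry both coreceptors, CD4 and CD8, and about the lineage they take. Mice with B16F10 melanoma, a transplantable mouse skin tumor grown under the skin in matrigel, received TRP1 (CD45.1) CD4+ T cells, whose receptor recognises a melanocyte protein. The strain label is RAG1- BW TRP-1 TCR. Transfer came 1 day after a single injection of cyclophosphamide at 250 mg/kg, a drug that depletes lymphocytes, and tissues were collected on day 11 after it. CD4+ and CD4+CD8+ cells were sorted, and 8100 cells entered library preparation with a 10x Genomics 5′ kit that counts molecules by unique molecular identifiers (UMIs). The tumor samples are titled transgenic and endogenous and the lymph node samples endogenous, yet both carry the same source, strain and protocol labels, and both give the treatment as untreated. The number of mice is not stated. Although the labels describe a sort of cells with CD4, 93.5% of the lymph node cells labelled Cd8 held CD8 UMIs and no Cd4 UMI.

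With 1 RNA library per tissue there were no replicates, and no p-value was computed. Intervals are at 95% and cover counting error only. Tdp cells were set beside the 5 other labels with at least 50 cells: tumor Cd4 (2451 cells) and Tcell (406), and lymph node Cd8 (2788), Cd4 (1873) and Treg (321). The median depth was 6633 UMIs and 1917 genes in Tdp cells, 5533 UMIs in tumor Cd4 cells and 2040 in tumor Tcell cells, and from 4763 to 6306 in the lymph node labels. The libraries shared 36 barcodes. A tumor receptor was called in 99.6% of Tdp cells, and 98.5% of those carried the commonest receptor, against 93.6% of tumor Cd4 and 60.5% of tumor Tcell cells. Among the called cells these labels held only 3, 3 and 2 distinct receptors. Lymph node cells carried other receptors, so tissue, library and receptor cannot be told apart in any comparison between the libraries.

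In the thymus, T cell precursors pass through a stage with both coreceptors and then keep CD4 or CD8. The factor ThPOK, encoded by Zbtb7b, holds cells in the CD4 helper lineage, and RUNX3 silences Cd4 and promotes the CD8 cytotoxic lineage. Cytotoxic cells store perforin and granzymes in granules and release them onto target cells, and helper cells act through surface ligands such as CD40 ligand and through cytokines.

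All 2693 Tdp cells held at least 2 UMIs of the T cell markers Cd3e, Cd3d, Cd3g, Trac, Trbc1 and Trbc2. Markers of cells other than T cells were close to 0. At least 2 UMIs of a marker list were found in 3 Tdp cells for B cells, 16 for macrophages and monocytes, 1 for natural killer cells, 1 for melanoma, 2 for endothelial cells and 0 for neutrophils, dendritic cells and fibroblasts. Of the regulatory T cell markers, at least 2 UMIs were found in 69.0% of Tdp cells and 70.1% of tumor Cd4 cells. In Tdp cells these came mostly from Ctla4, an inhibitory receptor of activated T cells, at 421 CPM (the gene's UMIs per total UMIs of the label on the usual CPM scale), and Il2ra, an interleukin 2 receptor chain, at 82.9 CPM. The defining factor Foxp3 stood at 0.274 CPM and Ikzf2 at 4.38 CPM, against 394 and 683 CPM in lymph node Treg cells. Of the gamma delta T cell markers, Trdc, a constant segment that lies within the Tra locus, had UMIs in 55.6% of Tdp cells and 38.3% of tumor Cd4 cells, while the other markers of that list, Tcrg-C1 and Trgv2, stood at 0.164 and 0.110 CPM in Tdp cells.

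Tdp cells carried transcripts of both coreceptors, at levels that were parted between the lymph node Cd8 label and the Cd4 labels of both tissues. Tumor Tcell cells also held both. Their means were 0.707 Cd4, 0.616 Cd8a and 0.990 Cd8b1 UMIs per cell, at a median depth of 2040 UMIs. The Tdp means were 1.96, 5.09 and 7.57 UMIs, at a median depth of 6633 UMIs. Summed over the cells, Cd8b1 stood at 1118 CPM in Tdp cells and 1144 CPM in lymph node Cd8 cells, a ratio of 0.977 (interval 0.958 to 0.996). Cd8a stood at 751 CPM in Tdp cells and 509 CPM in lymph node Cd8 cells, 1.48-fold apart (1.44 to 1.52). In tumor Cd4 cells the same genes stood at 41.2 and 17.5 CPM. Cd4 stood at 289 CPM in Tdp cells, under the 413 CPM of tumor Cd4 cells and above the 159 CPM of lymph node Cd4 cells and the 13.0 CPM of lymph node Cd8 cells. On the CPM scale, the Tdp label held a Cd8b1 level close to that of the lymph node Cd8 label. Its Cd4 level lay between those of the tumor and lymph node Cd4 labels. The Cd8b1 match depends on the total used for scaling, which the counting interval does not cover. In the median cell, 29.5% of Tdp UMIs and 44.8% of lymph node Cd8 UMIs were ribosomal protein transcripts. Without ribosomal protein, mitochondrial and receptor segment genes in the total, the all-gene median log2 ratio fell from 0.17 to -0.20. The Cd8b1 ratio under that total is not given here. In mm10, Cd4 lies at chr6:124864693-124888247, Cd8a at chr6:71373427-71379171 and Cd8b1 at chr6:71322788-71337492, by RefSeq's GRCm38.p6 annotation of the same assembly.

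Read cell by cell, the median Tdp cell held 2 UMIs of Cd4 and 12 UMIs of Cd8a and Cd8b1 together. For Cd4 the middle 90% of cells ran from 0 to 5 UMIs and the highest cell held 18. For the CD8 genes the middle 90% ran from 1 to 26 and the highest cell held 49. The median lymph node Cd8 cell held 10 CD8 UMIs, and the median tumor Cd4 cell held 2 UMIs of Cd4. The mean Cd4 count was lower in Tdp than in tumor Cd4 cells, at 1.96 against 2.35 UMIs, although Tdp cells had more UMIs in all. No gap in the joint counts parted cells with many CD8 UMIs into Cd4-high and Cd4-low sets. Of the cells with 12 or more CD8 UMIs, 230 had 0 Cd4 UMIs, 353 had 1, 286 had 2, 239 had 3, 132 had 4, 72 had 5 and 86 had 6 or more.

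**Figure D1:**
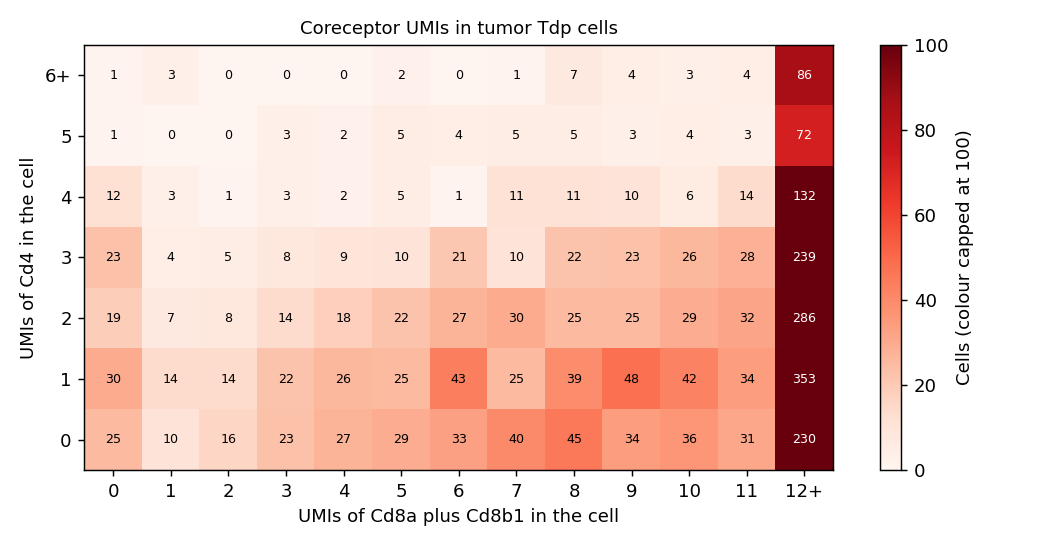
Number of tumor Tdp cells (number and colour in each square, colour capped at 100) by their UMIs of Cd4 (vertical axis) and of Cd8a plus Cd8b1 (horizontal axis), with the last row and column holding 6 or more and 12 or more. Cells spread over the grid with 6 empty squares, at 5 or more Cd4 UMIs and 6 or fewer CD8 UMIs, 25 cells have 0 of both, and the right-hand column runs from 230 cells without a Cd4 UMI to 86 cells with 6 or more.

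By UMIs, 2028 Tdp cells held both coreceptors (75.3%, exact Clopper-Pearson interval 73.6 to 76.9), 554 held CD8 genes alone (20.6%), 86 held Cd4 alone (3.19%) and 25 held neither (0.928%). These shares moved with depth. With each cell thinned to 2000 UMIs, which leaves out 30 Tdp cells, 38.7% held both (36.8 to 40.6) and 52.2% CD8 genes alone. The same share was 2.94% in tumor Cd4, 19.6% in tumor Tcell, 0.724% in lymph node Cd8, 1.49% in lymph node Cd4 and 3.88% in lymph node Treg cells at 2000 UMIs. The last 3 are the lymph node labels, at median depths from 4763 to 6306 UMIs before thinning. They give no clean background level. At 2000 UMIs, 15.2% of lymph node Treg cells held CD8 genes alone, and 69.7% of lymph node Cd4 cells held neither coreceptor. Cells with both coreceptors thus took a larger share than in every other label of either library, tumor Tcell cells included. Without the 5% of cells with the most UMIs, 74.3% of Tdp cells held both by all UMIs, and the tumor library held 1 cell labelled Cd8. In 111 Tdp cells (4.12%, 3.40 to 4.94) no CD8 UMI was found.

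Set against all 5 other labels, the genes with the widest margins in Tdp cells were mostly those of the cytotoxic granule and of effector cell surfaces. Of 4417 genes with 20 CPM or more in Tdp cells, 11 were at least 2-fold above every other label (0.249%) and 471 were above every other label by any amount. The minimum was set on Tdp cells alone, so a gene could enter only through its level there. The 3 widest margins belonged to granule genes, of which Prf1 and Gzmb are also in the marker list used here for the label. Prf1 encodes perforin, the pore-forming protein of the granule. It stood at 209 CPM in Tdp cells, 70.0 in tumor Tcell, 23.6 in tumor Cd4, 22.8 in lymph node Cd8, 14.2 in lymph node Cd4 and 5.78 in lymph node Treg cells. Gzmb encodes granzyme B, a protease that starts apoptosis in the target. It stood at 3056 CPM in Tdp cells, 1083 in tumor Tcell, 490.5 in tumor Cd4, 169 in lymph node Treg, 5.79 in lymph node Cd8 and 1.22 in lymph node Cd4 cells. Gzma, granzyme A, stood at 112 CPM in Tdp cells, 43.9 in tumor Tcell, 17.5 in lymph node Cd8 and 4.08 in tumor Cd4 cells, with 2.33 and 2.63 in lymph node Cd4 and Treg cells. The margins over the next label, tumor Tcell for all 3 genes, were 1.56, 1.5 and 1.34 on the log2 scale of CPM plus 1.

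The promoters of these 3 genes are shown because they lead the ranking and because RUNX3, a factor of the cytotoxic lineage, binds a short core motif. Each line gives the 250 bases before the RefSeq transcript start, read 5′ to 3′ on the gene's strand. Capitals mark every TGTGGT or, for the other strand, ACCACA, which are the only letters that were searched.
Gzmb, GRCm38.p6 chr14:56262335-56262584, minus strand: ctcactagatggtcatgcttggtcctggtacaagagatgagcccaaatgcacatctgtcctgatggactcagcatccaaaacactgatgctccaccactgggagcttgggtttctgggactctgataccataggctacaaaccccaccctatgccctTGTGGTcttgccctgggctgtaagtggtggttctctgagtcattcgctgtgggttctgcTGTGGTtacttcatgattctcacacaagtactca
Prf1, GRCm38.p6 chr10:61297586-61297835, plus strand: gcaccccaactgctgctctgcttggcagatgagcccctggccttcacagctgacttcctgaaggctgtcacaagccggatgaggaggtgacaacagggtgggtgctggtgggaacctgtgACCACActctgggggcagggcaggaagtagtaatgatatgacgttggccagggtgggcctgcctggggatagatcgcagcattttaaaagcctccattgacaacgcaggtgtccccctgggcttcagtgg
Gzma, GRCm38.p6 chr13:113100982-113101231, minus strand: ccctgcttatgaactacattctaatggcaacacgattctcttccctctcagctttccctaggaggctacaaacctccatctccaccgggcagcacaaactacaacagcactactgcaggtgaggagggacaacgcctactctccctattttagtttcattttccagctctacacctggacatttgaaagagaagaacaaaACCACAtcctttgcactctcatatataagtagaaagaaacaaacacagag
The Gzmb window held 2 matches, which began 93 and 34 bases before the start, the Prf1 window held 1 at 130 bases and the Gzma window 1 at 50 bases. The transcript start used for Prf1 lies inside the annotated gene, which begins at chr10:61297751, so part of that window overlaps the gene. Of 32851 RefSeq promoters of the same length, 14.0% held at least 1 match. A match is a stretch of letters and not a measured binding site, and no binding data were used here. Runx3 itself stood at 81.3 CPM in Tdp cells, 107 in tumor Cd4 and 74.7 in lymph node Cd8 cells, within 2-fold of both.

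Gzmk, granzyme K, lies beside Gzma on chromosome 13 (chr13:113171630-113180965 and chr13:113093824-113100981) and had the same order of tumor labels. It stood at 79.6 CPM in Tdp cells, 33.2 in tumor Tcell, 12 in tumor Cd4 and 6.95 in lymph node Cd8 cells. The remaining genes with a 2-fold margin that the naming rule reached were surface proteins and a secreted protein. Ly6c2, a surface protein of memory and effector CD8 cells, stood at 2743 CPM in Tdp cells, 1118 in lymph node Cd8, 832 in tumor Cd4 and 711 in tumor Tcell cells, and 14.2 in lymph node Cd4 cells. Reads of Ly6c2 and its near-identical neighbour Ly6c1 may be split unevenly, and Ly6c1 stood at 3.73 CPM in Tdp cells. Cd160, an inhibitory receptor of cytotoxic cells, stood at 94.7 CPM in Tdp cells, 40.3 in lymph node Cd8, 27.3 in tumor Tcell and 11.7 in tumor Cd4 cells. Fgl2, a secreted fibrinogen-like protein, stood at 122 CPM in Tdp cells, 51.8 in tumor Cd4 and 47.5 in tumor Tcell cells. For Jaml, an adhesion protein of the junctional adhesion family, the values were 165 CPM in Tdp cells, 73.6 in tumor Tcell and 72.1 in lymph node Cd8 cells. Slamf7, a receptor of the SLAM family, stood at 93.1 CPM in Tdp cells and at 42.7 and 40.9 in the other tumor labels. The 2 genes left of the 11, Dapk2 at 22.9 CPM and Cdkn2a at 43.0 CPM in Tdp cells, are under the naming level of 50 CPM and are given because the count is small, after their values were seen.

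**Figure D2:**
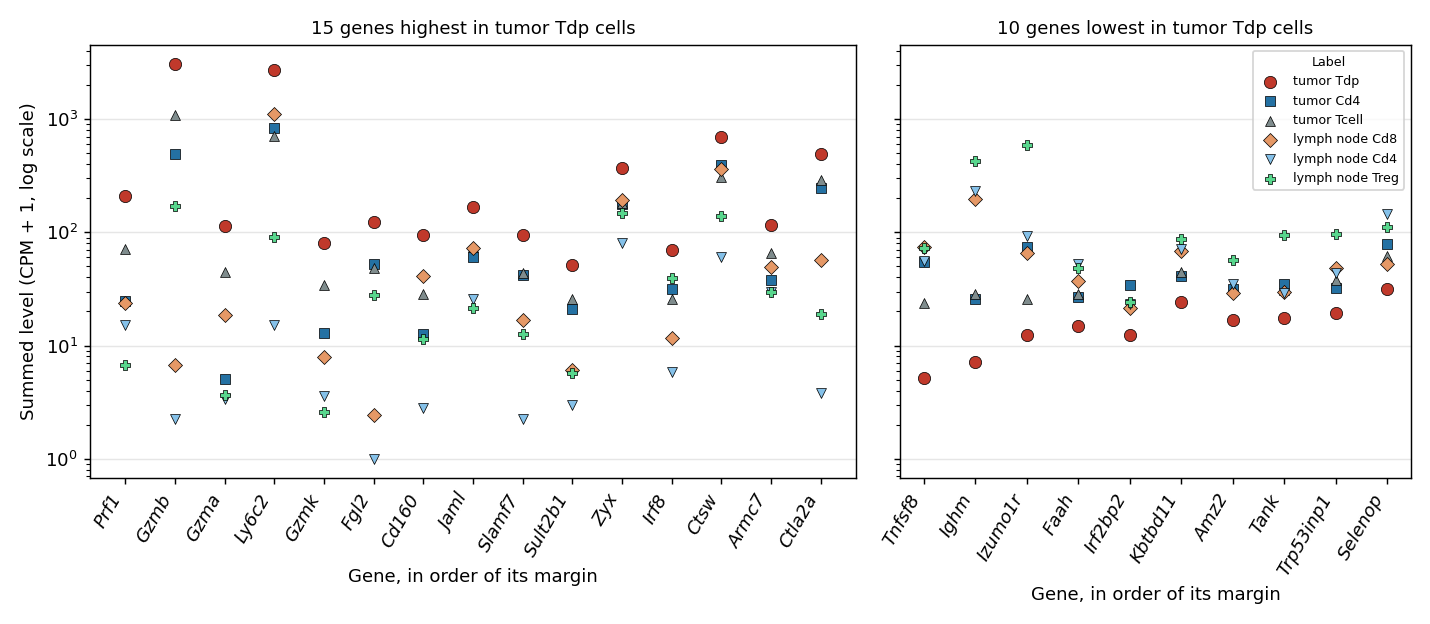
Summed level (CPM plus 1, log axis) of the 15 genes with the widest margin above and the 10 with the widest margin below all other labels, with 1 point for each of the 6 labels. For Prf1 the Tdp point stands at 209 CPM over 70.0 in tumor Tcell cells, and for Tnfsf8 it stands at 4.17 CPM under 22.5.

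Of 3412 genes with 20 CPM or more in each other label, 3 were at least 2-fold below every other label (0.0879%), and 494 were below every other label by any amount. Tnfsf8, the CD30 ligand, stood at 4.17 CPM in Tdp cells and between 22.5 CPM in tumor Tcell and 72.9 CPM in lymph node Cd8 cells elsewhere. Ighm, an immunoglobulin heavy chain, stood at 6.14 CPM in Tdp cells and from 24.8 to 423 CPM elsewhere. Izumo1r, also called folate receptor 4, a surface protein of helper and regulatory T cells, stood at 11.3 CPM in Tdp cells, 24.9 in tumor Tcell and 588 in lymph node Treg cells. Tnfsf8 and Izumo1r were thus both lower in Tdp cells than in lymph node Cd8 cells, where Tnfsf8 was highest and Izumo1r stood at 64.2 CPM. Ighm is also a marker of B cells, whose other markers were at or near 0 in Tdp cells, and its part in these values was not tested.

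Against tumor Cd4 cells, which came from the same library and nearly all carried the same receptor, Tdp cells were 2-fold higher at 57 of 4820 genes (1.18%) and 2-fold lower at 111 (2.3%). Of these, 29 and 61 reached 20 CPM in the higher label alone. The median over all 4820 genes was -0.11 on the log2 scale. The split moved with the scaling. With TMM factors 76 genes were higher and 90 lower, and 45.8% in place of 33.9% of the calls were then higher. That scaling moved the median of all genes from -0.11 to 0.01.

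Granule genes were mostly higher in Tdp cells. Of 12 genes of the list with 20 CPM or more in Tdp cells, 10 were higher there than in any other label, beside 471 of 4417 over all genes. These could enter only through their Tdp level, and Gzmb and Prf1 are also in the marker list used here for the label. Of 12 measured genes of the list, 4 were 2-fold higher than in tumor Cd4 cells and 0 lower. Of the 4, 2 met the minimum of 20 CPM in Tdp cells alone, beside 29 of 57 over all genes. The list's median was 0.77, against -0.11 over all genes. Beyond the granzymes and perforin, Nkg7, a granule membrane protein, stood at 3582 CPM against 2374 in tumor Cd4 cells. Cst7, which encodes the protease inhibitor cystatin F, stood at 612 against 372 CPM, and Ctsw, the cathepsin of cytotoxic cells, at 695 against 393 CPM. Srgn, the proteoglycan on which granules pack their proteases, went the other way, at 1631 against 2820 CPM. Fasl, the ligand of the death receptor Fas, stood at 187 against 175 CPM, 1.07-fold apart (1.02 to 1.13). The ratios of perforin and the granzymes were thus larger than those of Fasl, Nkg7 and Cst7.

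Natural killer receptors and inhibitory receptors stood mostly higher. Of 7 measured natural killer receptor genes 2 were 2-fold higher and 1 lower, with a median of 0.52. Of these calls, 1 of the 2 higher and the 1 lower met the minimum of 20 CPM in the higher label alone. Klrk1, which encodes the activating receptor NKG2D, stood at 489 against 185 CPM, 2.65-fold apart (2.53 to 2.77), and at 14.5 CPM in lymph node Cd8 cells. Klre1 stood at 45.8 against 9.45 CPM. Fcer1g, a signalling adaptor, was lower, at 10.6 against 37.3 CPM. Of 10 inhibitory receptors 1 was 2-fold higher, Cd160, which met the minimum in Tdp cells alone, and 0 lower, with a median of 0.27. The PD-1 gene Pdcd1 had 279 against 196 CPM and Havcr2, which encodes TIM-3, at 151 against 104 CPM, while Lag3 stood at 741 against 701 CPM. The exhaustion-linked factor Tox was lower, at 29.0 against 76.5 CPM, 2.63-fold below (2.37 to 2.93). So Tdp cells held more PD-1 and TIM-3 transcript beside less Tox transcript than tumor Cd4 cells.

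Helper genes had the lowest median of the 28 lists. All 11 measured genes were below the tumor Cd4 level and 8 of them at least 2-fold, with a median of -3.02. Of the 8, 7 met the minimum of 20 CPM in tumor Cd4 cells alone, so they could enter only from that side. Most genes lay below the tumor Cd4 level, with 29.9% of the 4053 genes measured in both tissues higher in Tdp cells. With TMM factors all 11 helper genes were still below. Tnfsf11, the RANK ligand, stood at 3.07 against 122 CPM. Cd200, a ligand that restrains myeloid cells, stood at 5.10 against 51.5 CPM. Icos and Cd28, costimulatory receptors, stood at 212 against 366 and 377 against 606 CPM. Thinned to 2000 UMIs, the median Tdp cell held 1 UMI of the whole list (middle 90% of cells 0 to 4.9), and the median tumor Cd4 cell held 5 (1 to 11). Of 9 measured cytokines 4 were 2-fold lower and 0 higher, with a median of -0.67. Of these 4, 3 met the minimum in tumor Cd4 cells alone, so they too could enter only from that side. Csf1, the growth factor of macrophages, stood at 102 against 290 CPM and Csf2, the cytokine GM-CSF, at 1.64 against 29.1 CPM. Ifng was close in both, at 284 against 347 CPM, with UMIs in 59.0% of Tdp cells and 57.9% of tumor Cd4 cells.

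Transcription factors gave a mixed picture. Of 11 coreceptor lineage factors 0 were 2-fold higher and 2 lower, Tox and Zbtb7b, with a median of -0.39. Zbtb7b stood at 9.32 CPM in Tdp cells, 31.6 in tumor Cd4, 2.32 in lymph node Cd8 and 31.0 in lymph node Cd4 cells. The Tdp level of Zbtb7b thus lay between those of the lymph node Cd8 and Cd4 labels. Eomes, a factor of cytotoxic and memory CD8 cells, stood at 42.4 against 9.45 CPM in tumor Cd4 cells, 4.48-fold higher (3.72 to 5.43), and near the 51.8 CPM of lymph node Cd8 cells. Tbx21, which encodes T-bet, differed little between the tumor labels, with a ratio of 1.05 (0.993 to 1.10). Irf8 stood at 68.8 against 30.8 CPM. Of 11 effector factors 2 were 2-fold higher, Eomes and Irf8, and 0 lower, with a median of 0.27. Eomes met the minimum of 20 CPM in Tdp cells alone, and Zbtb7b in tumor Cd4 cells alone.

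Signalling, metabolic and surface lists filled in the rest of the comparison. Cd247, the zeta chain of the T cell receptor complex, stood at 197 against 527 CPM, 2.68-fold below (2.58 to 2.79), while Cd3e stood at 1838 against 1876 CPM. Cd5, which tunes receptor signalling, stood at 116 against 240 CPM. These were the 2 of 17 genes of the receptor complex list that were 2-fold lower, and 0 were higher. Of 18 glycolysis and hypoxia genes 17 were below tumor Cd4 cells and 3 by 2-fold, with a median of -0.58. Of the 3, 1 met the minimum of 20 CPM in tumor Cd4 cells alone. Of the 4053 genes measured in both tissues, 29.9% were higher in Tdp than tumor Cd4 cells, so most genes lay below. With TMM factors 15 of the 18 glycolysis and hypoxia genes were below. Hif1a, the oxygen-regulated factor, stood at 120.1 against 331 CPM and Tpi1, a glycolytic enzyme, at 157 against 386 CPM. Oxidative phosphorylation genes stood close to the tumor Cd4 level, with 0 of 16 past 2-fold and a median of 0.02. Ifitm1, Ifitm2 and Ifitm3 were 2-fold lower, with Ifitm3 at 129 against 531 CPM and Ifitm2 at 38.9 against 162 CPM, and Ifitm10 stood at 41.1 against 22.3 CPM, while the metallothioneins Mt1 and Mt2 stood 1.60- and 1.61-fold higher.

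Chemokines and the genes of homing and adhesion split by member. Of 6 measured chemokines 2 were 2-fold higher than in tumor Cd4 cells, Ccl5 and Ccl9, and 1 was lower, Ccl1, with a median of 0.52. Ccl9 met the minimum of 20 CPM in Tdp cells alone, and Ccl1 in tumor Cd4 cells alone. Ccl9, a chemokine that attracts myeloid cells, stood at 32.0 CPM in Tdp, 15.4 in tumor Tcell and 2.79 in tumor Cd4 cells and is listed at 0 in the lymph node labels. Ccl1, the ligand of the receptor CCR8, stood at 2.74 against 78.4 CPM. Its receptor gene Ccr8 was also lower, at 4.77 against 89.0 CPM. Cxcr6, a receptor of tissue-dwelling T cells, and Ccr2, a receptor for inflammatory chemokines, stood within 1.07- and 1.13-fold of the tumor Cd4 level. Both genes of the CCL1 and CCR8 pair were thus low in Tdp cells. Of 13 integrin and residency genes 1 was 2-fold higher, a gene that met the minimum in Tdp cells alone, and 2 were lower. Itga1, the alpha 1 integrin of collagen-binding tissue T cells, stood at 28.0 against 6.73 CPM, and Itga4 and Itgb1, whose proteins pair as VLA-4, stood at 24.4 against 51.6 and 68.6 against 142 CPM. The tetraspanins Cd9 and Cd82, membrane organisers, stood at 4.06 against 95.5 and 205 against 496 CPM, and 3 of the 7 measured genes of their list were 2-fold lower and 0 higher. Of the 3, 1 met the minimum in tumor Cd4 cells alone.

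Costimulatory, activation and survival genes were mostly within 2-fold. Of 10 costimulatory receptors 1 was higher, Slamf7, and 2 were lower, Tnfrsf4 and Tnfrsf18. Tnfrsf18, the receptor GITR, stood at 198 against 429 CPM, while Cd27, a receptor of the same family, stood at 234 against 172 CPM. Among reporters of receptor signalling 1 of 11 was 2-fold lower, Egr2, at 11.4 against 27.9 CPM, and Nr4a1, Nr4a2 and Nr4a3, orphan nuclear receptors induced by signalling, stood at 415 against 554, 559.7 against 493 and 136 against 174 CPM. Dusp1, an immediate early phosphatase, was the 1 gene of 15 immediate early and stress genes past 2-fold, at 191 against 469.5 CPM. Receptor signalling genes thus differed less than the helper and granule genes did. Of 13 survival and death genes 2 were lower, Bcl2l1, which encodes BCL-XL, at 23.7 against 50.5 CPM, and Fas, at 15.2 against 32.1 CPM. Egr2 and Fas met the minimum of 20 CPM in tumor Cd4 cells alone. With TMM factors the lower calls came to 0 of 13 survival genes, 0 of 13 integrin and residency genes, 1 of 10 costimulatory receptors and 1 of 17 genes of the receptor complex list. Of 14 MHC class I genes, 5 proliferation genes and 14 cytoskeleton genes 0 were past 2-fold.

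Interferon response genes were higher at 5 of 16 and lower at 0, with a median of 0.44. All 5 met the minimum of 20 CPM in Tdp cells alone, so a gene of this level could enter only by being high there. The summed level of the list was lower in Tdp cells, at 4723 against 5433 CPM, with the most abundant member, Ifi27l2a, at 1635 against 2291 CPM. Among the 5, Ifit3 stood at 34.3 against 6.30 CPM and Mx1 at 33.5 against 12.5 CPM. Isg15, at 243 against 199 CPM, was not past 2-fold. The count moved with the Tdp cells that had no CD8 UMI. In the 2582 Tdp cells that held a CD8 UMI, 3 of 15 genes were higher and the median was 0.28.

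Among the 24 genes with the highest ratios over tumor Cd4 cells, the lower ranks held regulators and enzymes. Ikzf3, which encodes the factor Aiolos, stood at 147 against 52.8 CPM, 2.79-fold higher (2.57 to 3.03). Sgk1, a kinase that acts on ion transport and T cell fate, stood at 117 against 48.8 CPM. Abcb9, a lysosomal peptide transporter, stood at 75.6 against 28.1 CPM, and Atp8b4, a phospholipid flippase, at 96.6 against 39.7 CPM. Lat2, a signalling adaptor related to LAT, stood at 56.0 against 23 CPM and at 0.386 CPM in lymph node Cd8 cells. Sult2b1, a sulfotransferase of sterols, stood at 50.2 against 20.2 CPM. Among the 24 lowest ratios, Maf, a factor of follicular helper and regulatory cells, stood at 20.7 against 89.9 CPM, 4.35-fold below (3.87 to 4.89). Rora, a nuclear receptor, stood at 18.3 against 59.1 CPM and Nrp1, a coreceptor for semaphorins, at 24.8 against 76.1 CPM. Serpinb1a, an inhibitor of serine proteases, stood at 35.0 against 151 CPM, and Egln3, an oxygen sensor, at 22.7 against 76.3 CPM. All 48 named genes kept their direction in the 11 alternative settings, and 5 of them, Sult2b1, Lat2, Irf8, Sgk1 and Fgl2, were under 2-fold in 1 or 2 of these. The 48 were picked for extreme ratios in these same cells, so a kept direction is no separate evidence.

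**Figure D3:**
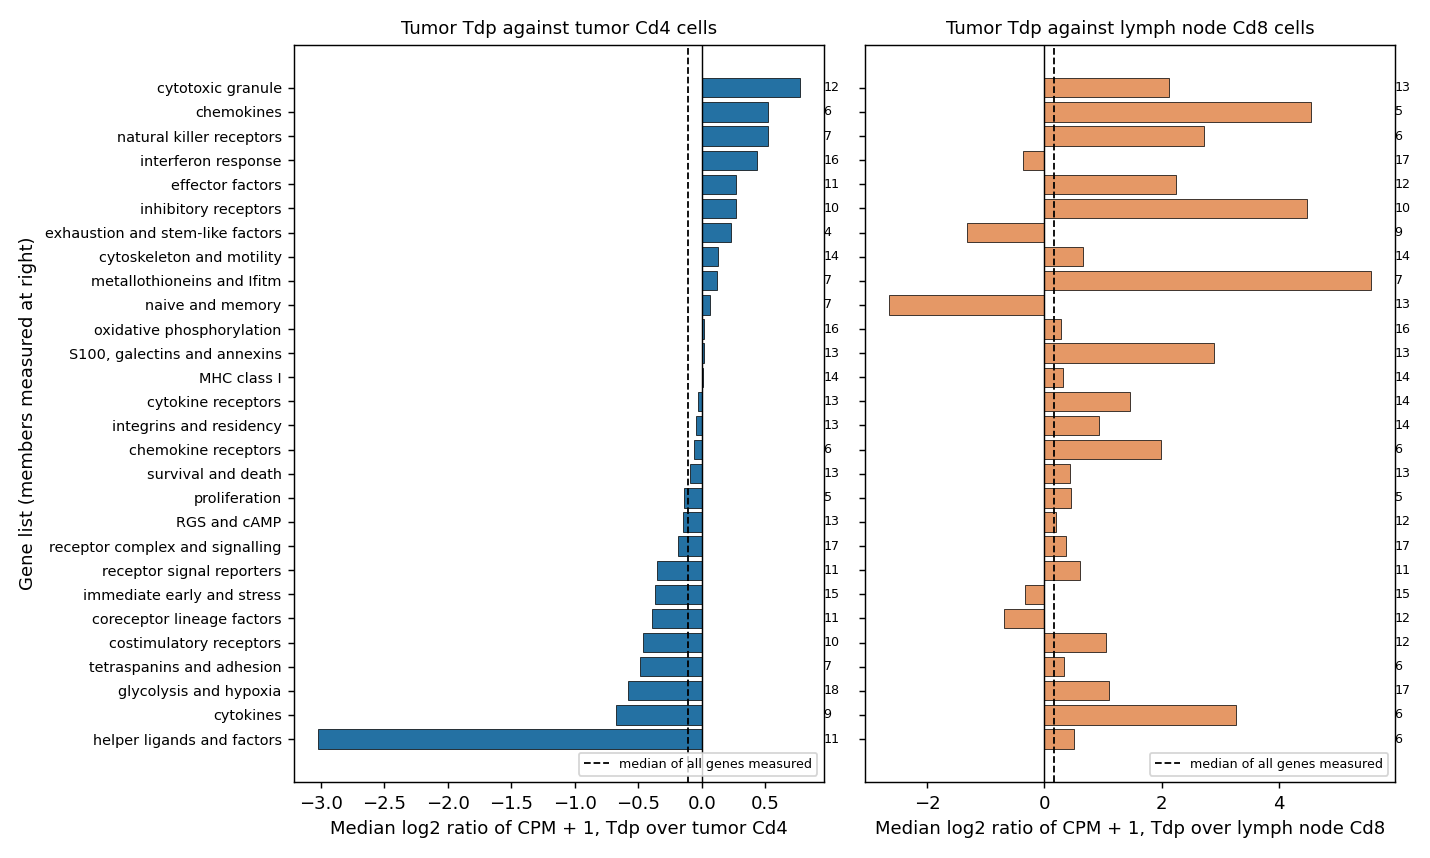
Median log2 ratio of CPM plus 1 for 28 gene lists, Tdp over tumor Cd4 cells (left) and Tdp over lymph node Cd8 cells (right), with the number of measured members at the right and a dashed line at the median of all genes. Helper genes lie lowest on the left, at -3.02, and metallothionein and Ifitm genes highest on the right, at 5.56.

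The tumor Tcell label, with 2040 UMIs per cell at the median, came next to Tdp cells for Prf1, Gzmb, Gzma and Gzmk, while over the whole granule list tumor Cd4 cells came next, with a summed level of 7022 CPM against 5588 CPM in Tcell and 10587 CPM in Tdp cells. Tdp cells were 2-fold higher at 161 of 4889 genes (3.29%) and lower at 72 (1.47%). Of these, 86 and 51 reached 20 CPM in the higher label alone. The share of calls that were higher, 69.1%, changed with the settings, to 50% with a total that leaves out receptor segments, mitochondrial and ribosomal protein genes, to 59.0% with the mean of each cell's CPM, to 80.7% at 50 CPM and to 55.0% without cells holding 2 or more UMIs of the proliferation list. Granule genes were higher at 5 of 12 and lower at 0, with a median of 0.82. Ccl5, a chemokine that draws T cells and myeloid cells, was close, at 19650 CPM in Tdp and 17380 CPM in Tcell cells, against 2048 CPM in tumor Cd4 cells. Actb, which encodes beta-actin, stood at 6002 CPM in Tdp cells and 1584 CPM in Tcell cells, 3.79-fold apart (3.59 to 4), and 5241 CPM in tumor Cd4 cells. AY036118 went the other way, with 503 CPM in Tdp and 3805 in Tcell cells. Tnfrsf4, the costimulatory receptor OX40, stood at 126 CPM in Tdp, 387 in Tcell and 1050 in tumor Cd4 cells, so Tcell cells lay between. The lower depth of Tcell cells and their median mitochondrial share of 3.1%, against 1.95% in Tdp cells, stood beside these differences, and their part was not tested.

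Against lymph node Cd8 cells, Tdp cells were 2-fold higher at 550 of 4831 genes (11.4%) and lower at 244 (5.05%). Of these, 303 and 160 reached 20 CPM in the higher label alone. Against lymph node Cd4 cells, Tdp cells were 2-fold higher at 631 of 4977 genes (12.7%) and lower at 361 (7.25%), and here 381 and 242 did so. Both comparisons use the same Tdp cells. The median share of UMIs from ribosomal protein genes was 29.5% in Tdp and 44.8% in lymph node Cd8 cells. When these, receptor segment and mitochondrial genes were left out of the total, the split turned, to 430 higher and 661 lower against Cd8 cells and to 561 and 866 against Cd4 cells. The median of all genes then moved from 0.17 to -0.20 and from 0.08 to -0.27.

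Genes of naive cells were lower and genes of effector cells higher in Tdp cells than in the lymph node labels. Ccr7 and Tcf7, which encode a chemokine receptor and a factor of naive and memory T cells, stood at 0.603 and 2.03 CPM in Tdp cells and at 412 and 315 CPM in lymph node Cd8 cells. Of 13 naive and memory genes 10 were lower than in lymph node Cd8 cells, and 1, Ly6c2, was higher. Granule genes were higher at 10 of 13 and lower at 1, Gzmm, granzyme M, which stood at 1.15 CPM in Tdp cells and 22.2 CPM in lymph node Cd8 cells. Gzmb was 527-fold higher than in lymph node Cd8 cells (436 to 645). Inhibitory receptors were higher at 9 of 10, with Lag3 68.9-fold (59.8 to 79.7) and a median of 4.48. Lgals3, which encodes galectin 3, stood at 1259 against 6.79 CPM, and Mt1 at 1551 against 3.53 CPM. Of the S100, galectin and annexin list 9 of 13 genes and 6 of 7 of the metallothionein and Ifitm list were higher. These genes were high in all 3 tumor labels, for Mt1 at 968 CPM in tumor Cd4 and 2076 CPM in tumor Tcell cells. Interferon response genes did not share the direction, with 1 of 17 higher and 2 lower than in lymph node Cd8 cells and a median of -0.37. Many of these calls met the minimum of 20 CPM in the higher label alone and could enter only from that side. They were 6 of the 10 lower naive and memory genes, 5 of the 10 higher granule genes and Gzmm. So were 7 of the 9 inhibitory receptors, 3 of the 9 S100, galectin and annexin genes and all 6 metallothionein and Ifitm genes. Of the 2 lower interferon response genes 1 was such a call.

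The lymph node labels also gave a set of genes that differed between Cd8 and Cd4 cells, whose directions in lymph node were read without tumor cells. A gene also needed 20 CPM in Tdp or tumor Cd4 cells to enter, so tumor levels took part in the choice. Of 4053 genes measured in both tissues, 72 were at least 2-fold higher in lymph node Cd8 than Cd4 cells, and 54 of these (75%) were higher in tumor Tdp than tumor Cd4 cells. Over all 4053 genes 29.9% were higher in Tdp cells. At 2-fold, 14 of the 72 (19.4%) were higher in Tdp cells, beside 0.691% of all genes. Of 28 genes lower in lymph node Cd8 cells, 25 (89.3%) were lower in Tdp cells and 12 (42.9%) by 2-fold, beside 1.36% of all genes. Of these calls, 6 of the 14 and 9 of the 12 met the minimum in the tumor label where they were high and not in the other. Of the 72 and the 28 genes, 11 and 12 met it in 1 tumor label alone. The counts are thus no support for a shared direction. With TMM factors the share over all genes was 53.6%, and the sets then gave 67 of 81 (82.7%) and 17 of 21 (81.0%). The medians were 0.46 for the genes higher in lymph node Cd8 cells, -0.91 for those lower and -0.10 for all.

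Of the genes past 2-fold in tumor, 2 went against their direction in lymph node. They were Egr2 and Itgb1, which were higher in lymph node Cd8 cells and 2-fold lower in Tdp cells, with Itgb1, the beta 1 integrin, at 68.6 against 142 CPM in tumor. Among the genes with the same direction in both tissues, Adgrg5, an adhesion receptor, stood at 25.8 CPM in Tdp and 1.36 in tumor Cd4 cells, and at 32.2 and 0.667 CPM in lymph node Cd8 and Cd4 cells. Cd7, a surface protein of T and natural killer cells, stood at 23.6 against 3.58 CPM in tumor and 205 against 55.8 CPM in lymph node. Among the helper side, Ckb, a creatine kinase, stood at 3.67 against 23.7 CPM in tumor and 2.76 against 23.6 CPM in lymph node. Ramp1 and Ramp3, which modify peptide hormone receptors, were lower in Tdp cells by 2.58 and 3.42 on the log2 scale. Egr2, Adgrg5, Cd7, Ckb, Ramp1 and Ramp3 each reached 20 CPM in 1 tumor label alone and could enter only from that side. Plac8, Nkg7 and Cxcr3 differed by 6.63, 4.74 and 4.30 in lymph node and by 0.65, 0.59 and -0.22 in tumor, where both labels expressed them. Dusp10, a phosphatase that stood at 51.6 CPM in lymph node Cd8 and 270.3 CPM in lymph node Cd4 cells, had 51.0 CPM in Tdp and 48.3 in tumor Cd4 cells.

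**Figure D4:**
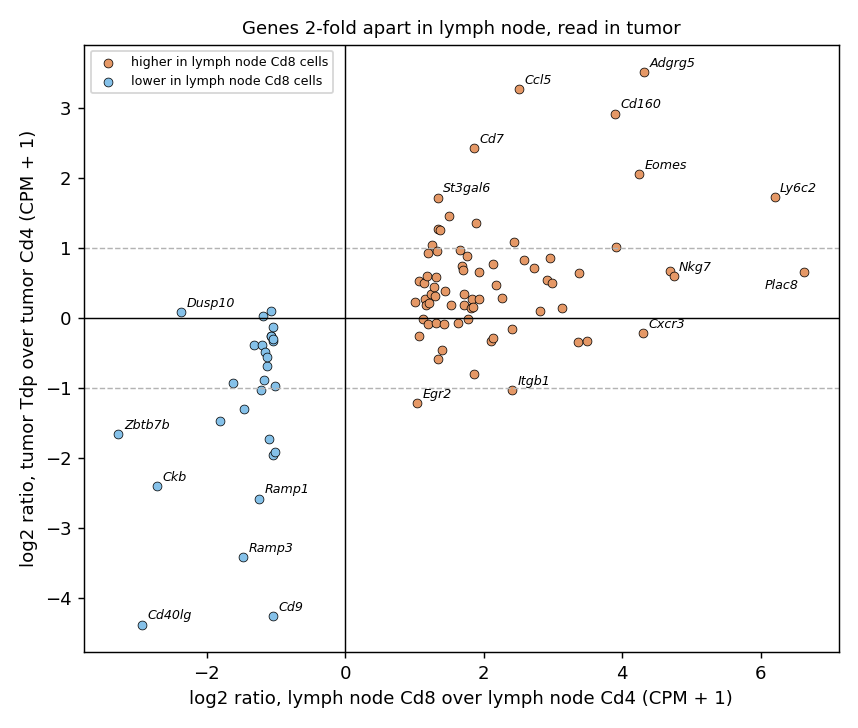
Log2 ratio of CPM plus 1 for the 100 genes that differ at least 2-fold between lymph node Cd8 and Cd4 cells (horizontal axis), read as tumor Tdp over tumor Cd4 cells (vertical axis), 1 point per gene. On the right 54 of 72 points lie above 0, and on the left 25 of 28 lie below 0.

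From cell to cell, the genes with the highest Fano factors in Tdp cells included chemokines, granzymes and interferon response genes. The Fano factor, the variance over the mean of depth-scaled counts, is about 1 where only counting error acts. At the same relative spread, the factor rises with the mean level of a gene, so values of genes or labels with unlike means are not directly comparable. The factor was above 2 for 221 of 5240 genes in Tdp cells (4.22%) and for 236 of 4993 in tumor Cd4 cells (4.73%). Ccl5, also the most abundant named gene of Tdp cells, had the highest value there, 94.1, and stood at 122 in tumor Cd4 cells. Next came Ccl4, a chemokine made on activation, at 44.6 and 128, Cxcl10, an interferon-induced chemokine, at 23.5 and 5.75, and Gzma at 21.2 and 14.3. Gzmb stood at 15.4 and 13.2, Spp1, the secreted protein osteopontin, at 16.3 and 37.8, and Isg15 at 12.8 and 7.14. At 2000 UMIs per cell only 39 genes were above 2, since fewer UMIs bring every value closer to 1.

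High variance came from different shapes of distribution. Thinned to 2000 UMIs, the median Tdp cell held 35 UMIs of Ccl5, the middle 50% of cells 15 to 60 and the highest cell 247. In tumor Cd4 cells the median was 0. The 5% of Tdp cells with the most Ccl5 held 16.0% of its UMIs, and the top 5% of tumor Cd4 cells held 62.9%. For Gzmb the same shares were 19.2% and 41.7%, with UMIs in 92.4% and 34.9% of thinned cells. Ccl5 and Gzmb transcripts were thus spread over nearly all Tdp cells, and in tumor Cd4 cells they sat in a minority. Gzma was another case, since UMIs were found in 7.13% of thinned Tdp cells and the top 5% held 91.0% of them. Prf1 had UMIs in 29.3% of thinned Tdp cells and 3.47% of tumor Cd4 cells, and the top 5% of Tdp cells held 32.8%. Ifitm3 went the other way, with 14.7% of Tdp and 46.6% of tumor Cd4 cells, and the top 5% held 60.9% and 26.8% of its UMIs. For the whole granule list the median thinned Tdp cell held 20 UMIs (middle 90% of cells 10 to 36), the median tumor Cd4 cell 13 (5 to 25), the median Tcell cell 11 and the median lymph node Cd8 cell 4 (1 to 9). The middle 90% of Tdp and tumor Cd4 cells overlapped for the list as a whole.

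Few of the variable genes went together in the same cells. Over 2663 thinned Tdp cells of 1 library and 60 genes, 9 of 1770 gene pairs had a Pearson correlation of 0.3 or more, 1 had -0.3 or less, and the median was 0.00. Ccl3 and Ccl4, neighbouring chemokine genes of similar sequence, had 0.47. Interferon response genes formed a group, with 0.46 for Ifit1 and Isg15 and 0.37 for Cxcl10 and Ifit1. Immediate early genes formed another, with 0.34 for Fos and Zfp36 and 0.32 for Fos and Dusp1. These values describe cells of 1 library at low counts and carry no test.

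Within the label, cells with both coreceptors and cells with CD8 genes alone had close levels of nearly all other genes. Of 4569 genes 0 were 2-fold higher in the cells with both (0%) and 2 lower (0.0438%), with a median of 0.00. The 2 were Cxcl10, at 9.12 against 37.4 CPM, and Rsad2, an interferon response gene, at 14.8 against 30.7 CPM, the former with 123 UMIs from 19 of the 554 cells with CD8 genes alone. Gzmb stood at 3122 CPM in the former and 3016 in the latter, Prf1 at 215 and 197, Ly6c2 at 2793 and 2672 and Ccl5 at 19817 and 20824. The median depth was 6891.5 UMIs in cells with both and 5810.5 in cells with CD8 genes alone, and the classes moved with depth, with 1390 cells of CD8 genes alone at 2000 UMIs in place of 554. A cell with CD8 genes alone can thus be one whose Cd4 transcripts were not sampled, and close levels between these classes are a description of the UMI classes.

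The 86 cells with Cd4 UMIs and no CD8 UMI differed more, although their few cells make many ratios noisy. Against them, cells with both coreceptors were 2-fold higher at 67 of 4934 genes (1.36%) and lower at 157 (3.18%). Gzmb stood at 1689 CPM in the 86 cells, Prf1 at 118 and Ccl5 at 9242, each below the values in cells with both coreceptors and above those of tumor Cd4 cells. Helper genes were higher in the 86 cells. Cd40lg, the CD40 ligand, had UMIs in 26 of 86 cells (30.2%, 20.8 to 41.1) and in 2.17% of cells with both coreceptors (1.58 to 2.90). Tnfrsf4 stood at 522 CPM against 119. The 86 cells also held more interferon response transcripts, which summed over the list to 10343 CPM against 4522 in cells with both coreceptors and 4712 in cells with CD8 genes alone. Isg15 stood at 1041 CPM against 206, with UMIs in 64.0% (52.9 to 74.0) against 46.4% of cells. Ifit1 stood at 292 CPM against 32.3, with UMIs in 33.7% against 8.88% of cells. For Cxcl10 the 219 CPM came from 14 of the 86 cells. The 25 cells with neither coreceptor stood between for Isg15, at 668 CPM, and near the 86 for Gzmb, at 1588 CPM.

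**Figure D5:**
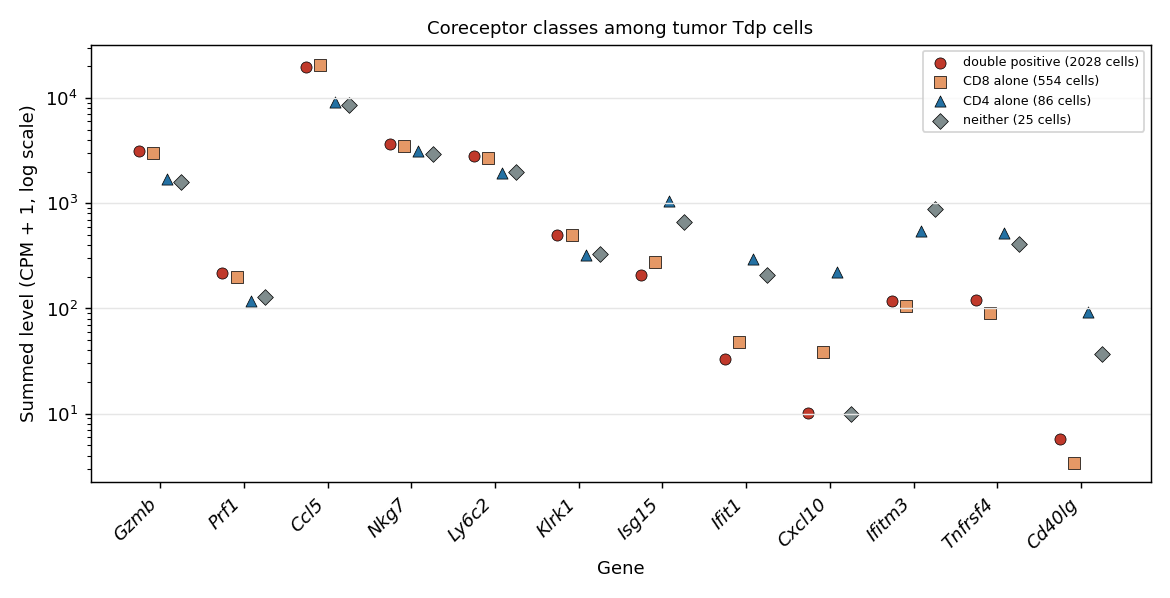
Summed level (CPM plus 1, log axis) of 12 genes in the 4 coreceptor classes of Tdp cells, 1 point per class. Cells with both coreceptors and with CD8 genes alone overlie each other for the cytotoxic genes, and cells with Cd4 alone stand apart at Isg15 (1041 CPM against 206) and Cd40lg (91.1 CPM against 4.8).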

How the data were processed

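Gene expression was measured in single T cells by 10x Genomics 5′ chemistry, with 1 RNA and 1 receptor library from tumor and from lymph node. The authors deposited raw UMI counts per gene and cell for 14721 genes, made with Cell Ranger 3.1.0 on mm10, per the submitters' processing notes. They also deposited an annotation with other values per cell, the library, the cell label and the receptor, and the filters used before deposition are not stated. Of the genes, 1980 were at 0 in Tdp cells, and genes with no UMI in a whole library (1768 in tumor, 841 in lymph node) stayed out of comparisons between libraries.

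For each label, counts were added up over its cells and scaled to CPM. Labels were set against each other by the log2 ratio of CPM plus 1, which understates the change of low genes, and called at 2-fold where either label had 20 CPM. Receptor segments and Cd4, Cd8a and Cd8b1 were left out of the calls. Intervals are exact conditional Poisson intervals of a ratio and exact Clopper-Pearson intervals of a share, at 95%. With 1 library per tissue no test was made. Cells were also thinned to 2000 UMIs, leaving out shallower cells (30 of the Tdp, 33 of the tumor Cd4, 192 of the Tcell and 26, 62 and 12 of the lymph node Cd8, Cd4 and Treg labels). A Fano factor was called above 2 at a mean of 0.1 UMI per cell. Free RNA was not estimated and no doublet caller was run. Leaving out the 5% of cells with the most UMIs was an alternative.

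Named genes have 50 CPM or more in the higher label and 100 UMIs. They are the 24 highest and 24 lowest ratios against tumor Cd4 cells, 12 and 12 against each of tumor Tcell and lymph node Cd8 and Cd4 cells, the 15 highest and 10 lowest margins of the 6 labels, the 20 with the widest spread and the 15 most abundant. Segments of receptors and immunoglobulins, Xist, and genes that are predicted, mitochondrial, Y-linked or of ribosomal proteins are not named, and list members are named as examples. Some genes that meet the rule are not reported here. There were 28 gene lists and 13 marker lists with 425 genes, 411 of them in the table. The members and lists were chosen with earlier results of these data known. Promoter sequences are RefSeq's. Tools were numpy 2.4.6, scipy 1.17.1, pandas 2.3.3 and, for TMM factors alone, edgeR 4.0.16. The scripts' statistics were tested on simulated data.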

Additional observations from a re-analysis of the deposited data

Results flagged for a closer look

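In the lymph node library 6 cells carried the label Tdp, too few to enter any comparison. All 6, or 100% (exact Clopper-Pearson interval 54.1 to 100), held a Cd8a or Cd8b1 UMI and no Cd4 UMI, at a median depth of 7454 UMIs. They are listed because this signal lies in cells that the comparisons do not use. Of the tumor cells with the same label, 20.6% had CD8 UMIs and no Cd4 UMI, and of the lymph node cells labelled Cd8, 93.5%. The difference was not tested.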

How the results depend on the processing

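The 48 genes named against tumor Cd4 cells kept their direction in all 11 settings tried for them. They were picked for extreme ratios in the same cells, and several settings keep most of these cells, so a reversal was unlikely from the start. Under a pseudocount of 10 CPM, Sult2b1 (0.99), Lat2 (1.00, just under the threshold) and Irf8 (0.95) were below 2-fold, and so were Sgk1 (0.97), Fgl2 (0.85) and Irf8 (0.91) without cells holding 2 or more UMIs of the proliferation list, which leaves 407 of 2693 Tdp cells. Counts of calls followed the CPM minimum. Dropping it moved the 168 calls against tumor Cd4 to 533, the 233 against Tcell to 1359, the 794 against lymph node Cd8 to 1754, the 992 against lymph node Cd4 to 2237, the 11 highest genes to 27, the 3 lowest to 25 and the 79 lymph node lineage genes with the same sign to 356. At 50 CPM they came to 92, 88, 462, 562 and, for the lowest and the lineage genes, 0 and 34. A pseudocount of 10 gave 110 against tumor Cd4 and 83 against Tcell. The reduced total gave 388 against Tcell, 15 lowest and 122 lineage genes. Thinning to 2000 UMIs gave 422 against Tcell, 1 lowest and 39 genes of wide spread in place of 221, and a Fano threshold of 1.5 gave 485. Without cells holding proliferation UMIs 5 genes were lowest. The 75.3% of Tdp cells with both coreceptors became 49.2% with 2 UMIs of each, 38.7% at 2000 UMIs, 51.0% at 3000 UMIs and 66.1% without cells holding proliferation UMIs. Fewer genes or UMIs enter under the stricter minimums and thinning, and for the other settings the cause was not tested. With 1 library per tissue no replicate could be left out. No paired analysis was possible because each group holds 1 RNA library.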
